A study of Homo sapiens with 2 samples.

Results

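To describe the cell-cell junctions of FaDu cells with ectopic GLUT4, 51 genes of tight junctions, adherens junctions, desmosomes and gap junctions and of the epithelial membrane around them were followed on the 2 arrays of the study. They were taken by name, through probe sets whose platform annotation names only 1 of them. This gave 110 of 54675 probe sets and 48 of 19775 genes. CTNND1 and ESRP2 had only probe sets that name several genes, and F11R is not analysed here. FaDu is a squamous carcinoma line of the pharynx. The GLUT4 cells stably carried the introduced GLUT4 sequence and the vector cells the control vector, both after lentiviral infection and puromycin selection, with 1 array of total RNA for each. With 1 array per group no test was possible, no difference had a replicate check, and whatever else separated both selected populations is part of every difference. In RNA from whole cultures, fewer cells of a kind and less RNA per cell cannot be told apart.

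Tight junctions seal the space between epithelial cells: claudins, occludin and related proteins with a MARVEL domain form strands in the membrane, and plaque proteins such as ZO proteins and cingulin tie them to actin. Adherens junctions hold cells together through E-cadherin, P-cadherin and nectins with their catenins. Desmosomes, prominent in squamous epithelium, anchor keratin filaments through desmogleins, desmocollins, plakoglobin, plakophilins and desmoplakin, and gap junctions are channels of connexins that let small molecules pass between neighbours.

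Members lower with GLUT4 lay in the membrane part of the tight junction, in a connexin and in the epithelial membrane proteins, while the desmosome genes differed little. OCLN (occludin) was 2.38-fold lower, CLDN4 (a claudin) 2.07-fold, GJB2 (a connexin) 1.89-fold, MAL2 (a proteolipid of apical transport) 1.87-fold, CXADR (the coxsackievirus and adenovirus receptor, a tight junction protein) 1.80-fold, EPCAM (the epithelial cell adhesion molecule) 1.77-fold and ST14 (the membrane protease matriptase) 1.60-fold. These were the 7 of 48 members lower past 1.5-fold, the threshold of the methods, against 1.54% of all genes and 1.99% of the genes above the median signal. The members were chosen with earlier results of these data known, so this share cannot be read as a test. Of 58 further junction genes outside the list, 1 was lower by that much (1.72%). No member was higher past 1.5-fold, against 1.84% of all genes and 2.38% of those above the median signal. OCLN and CLDN4 were also lower past 2-fold, as were 0.314% of all genes. Each gene is represented by its brightest probe set over the 2 arrays, and a difference is log2 intensity in GLUT4 cells minus log2 intensity in vector cells. The median difference over the 48 members was -0.10, and that over all genes -0.02. Of the members, 34 lay below 0 (70.8%, against 52.2% of all genes). Over all their probe sets, 11 of 110 were lower past 1.5-fold, against 1.38% of the probe sets naming 1 gene, and 1 was higher, against 1.96%.

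**Figure D1:**
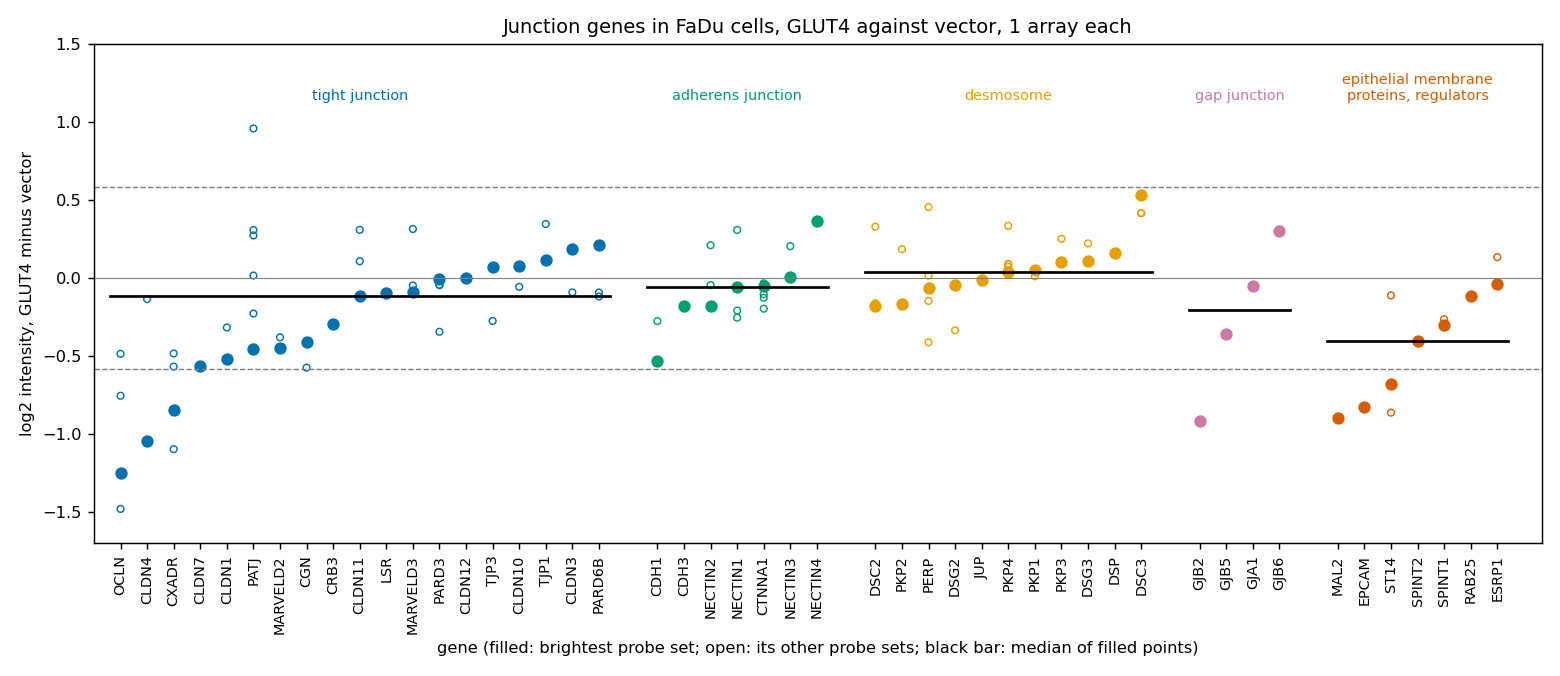
The log2 difference, GLUT4 minus vector (vertical axis), for each of the 48 genes, ordered within junction type; filled points are the brightest probe set of a gene, open points its other probe sets, black bars the median of the filled points and dashed lines 1.5-fold. The 7 filled points below the lower dashed line belong to tight junctions (3), gap junctions (1) and the epithelial membrane group (3), and none belongs to adherens junctions or desmosomes.

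The technical spread was taken from genes with several probe sets. Over 10523 such genes, the differences of the brightest and the second brightest probe set departed from each other with an SD of 0.29. For 1 probe set this makes an SD of 0.20. The 7 members lay between -0.68 and -1.25, which exceeds this SD by the choice of the 1.5-fold threshold alone. The probe sets of a gene share the same 2 arrays, so that spread does not cover variation between arrays or between cultures. The deposited values had median intensities of 39.1 on the GLUT4 array and 39.7 on the vector array, and 43 of the 48 members had a mean above the median signal of 39.3. SLC2A4, which encodes GLUT4, read 32.6 and 28.3, both under that median. Whether its probe set lies in the introduced sequence was not determined, and this reading is no check on the labels. Of the keratins listed as epithelial markers, KRT5, KRT14, KRT8 and KRT18 all lay above the median signal, with KRT14 2.03-fold higher with GLUT4. KRT6A and KRT17 are not analysed here. Leukocyte markers were all under the median signal, with a sum over 5 genes of 90.2 on the GLUT4 array and 88.4 on the vector array. Endothelial markers summed to 107 and 104 over 5 genes, and only VWF passed the median signal. Fibroblast markers summed to 1459 on the GLUT4 array and 834 on the vector array over 6 genes. Of these, DCN (1050.1 against 482) and LUM (79.9 against 38.5) were higher past 1.5-fold, against 1.84% of all genes. COL1A1 read 226 and 224 on its brightest probe set. A dim COL1A1 probe set read 34.2 and 16.3 (2.09-fold higher), and the remaining ones lay between -0.12 and -0.05. COL1A2 and COL3A1 lay under the median signal on both arrays, and PDGFRB read 49.3 and 43.1. The part of DCN, LUM and KRT14 in the junction results was not tested.

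**Figure D2:**
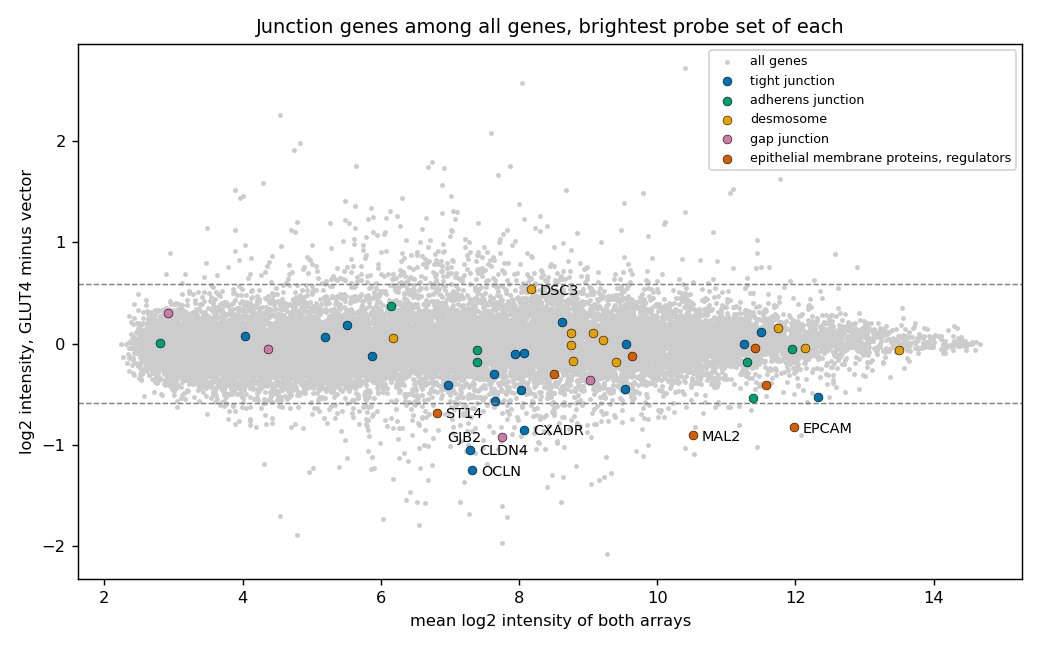
The log2 difference, GLUT4 minus vector (vertical axis), plotted over the mean log2 signal (horizontal axis), 1 point per gene at its brightest probe set; grey points are all 19775 genes, coloured points the members by junction type and dashed lines 1.5-fold. The 7 named points below the lower line lie at middle to high signal, and DSC3 lies just under the upper line.

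Occludin, a strand protein of tight junctions, was lower on each of its 4 probe sets. OCLN read 104 in GLUT4 cells and 247 in vector cells on its brightest probe set, a log2 difference of -1.25 and rank 27 of 19775 genes counted from the most lowered. Its second probe set read 72.4 and 102, 1.40-fold lower and thus within 1.5-fold. The dim ones read 12.7 against 35.5 (2.80-fold lower) and 8.76 against 14.8 (1.69-fold lower), both with means under the median signal. When 32 was added to all intensities to damp dim values, the brightest still gave -1.04. MARVELD2 (tricellulin), which sits where 3 cells meet, was within 1.5-fold at 633 in GLUT4 cells and 865 in vector cells (-0.45) and 86.4 and 113 (-0.38). MARVELD3, the remaining protein of this family, read 259.6 and 277 (-0.09), with its other probe sets at -0.05 and 0.31.

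Among the claudins, CLDN4 was past 1.5-fold and the others were not. CLDN4 read 109 in GLUT4 cells and 226 in vector cells (-1.05), while its dim second probe set read 35.0 and 38.4 (-0.14), so the call rests on 1 probe set. CLDN7 read 165 and 245 (-0.57) and CLDN1 4290.0 and 6163 (-0.52), both just inside the threshold of 0.58, and the second CLDN1 probe set was at -0.32. CLDN12 did not differ beyond the technical spread, at 2448 and 2449. CLDN3 read 48.8 and 42.9 (0.19), and CLDN10, which lay under the median signal, 16.8 and 15.9. CLDN11 read 56.4 and 61.2 (-0.12) on its brightest probe set but 53.0 and 42.9 (0.31) on its second, also above the median signal, and its dim probe set was at 0.11, so no direction can be given for it. The claudins thus held 1 of 7 genes lower past 1.5-fold, against 1.54% of all genes. Their median, and that of the tight junction genes below, is the -0.12 of this 1 CLDN11 probe set.

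CXADR, an adhesion molecule of the immunoglobulin type, was lower on all 4 probe sets. It read 201 in GLUT4 cells and 362 in vector cells on the brightest (-0.85) and 116 and 249.6 on the next (-1.10), and the dim probe sets were at -0.57 and -0.49. LSR, which recruits tricellulin to tricellular contacts, read 238 and 255 (-0.10). In the plaque below the membrane, none of the 3 genes was past 1.5-fold. TJP1 (ZO-1) read 3013 in GLUT4 cells and 2787 in vector cells (0.11) and 211 and 166 on its other probe set (0.34). TJP3 was under the median signal at 37.4 and 35.7. Cingulin, CGN, read 109 and 145 (-0.41) and 48.5 and 72.3 (-0.58), so that both of its probe sets lay below 0 and within 1.5-fold.

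Of the polarity proteins that place the tight junction at the apical border, none was past 1.5-fold on its brightest probe set. PARD3 read 750.4 in GLUT4 cells and 754 in vector cells, with its other probe sets between -0.35 and -0.05, PARD6B 424 and 366 (0.21) and CRB3, a Crumbs protein, 179.5 and 221 (-0.30). The 6 probe sets of PATJ, a scaffold bound to Crumbs complexes, did not run the same way. The brightest read 223 and 307 (-0.46), the next 133 and 107 (0.31) and 128 and 106 (0.27), and a further one read 58.8 and 30.2, 1.94-fold higher and the only member probe set higher past 1.5-fold. No direction can be given for PATJ. Over the tight junction as a whole, 3 of 19 genes were lower past 1.5-fold, against 1.54% of all genes. Of the 19, 14 lay below 0, against 52.2% of all genes, and the median was -0.12. Over the tight junction genes above the median signal the median was -0.30.

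**Figure D3:**
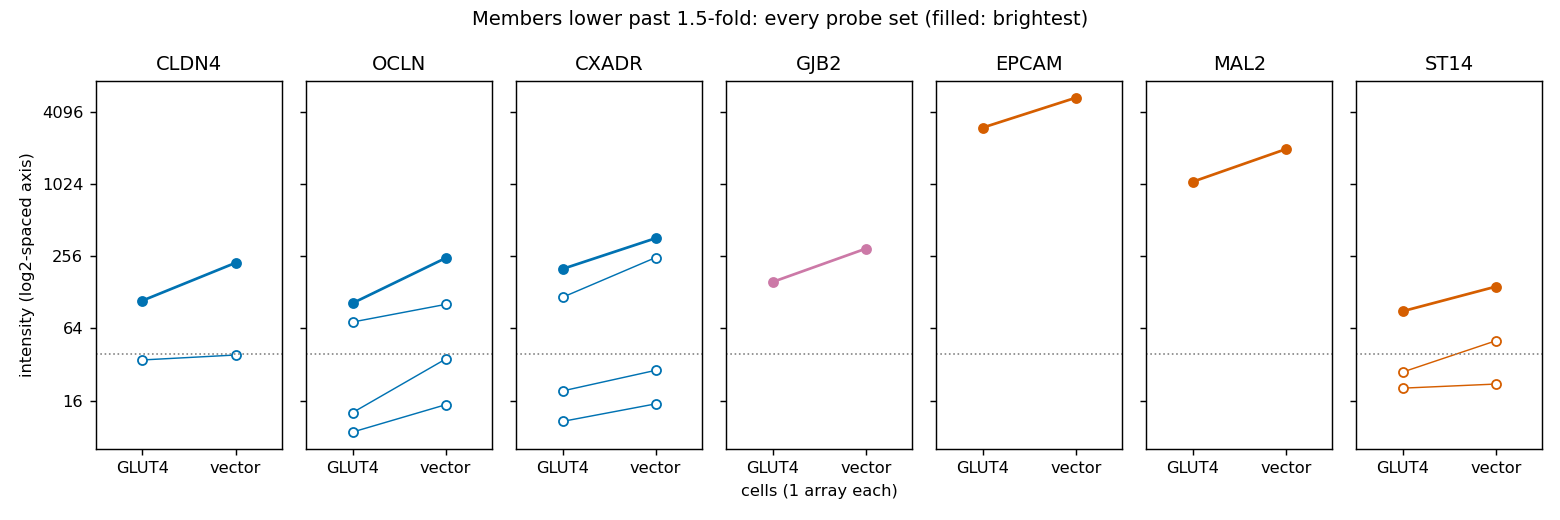
Intensity (vertical axis, log2-spaced) in GLUT4 cells and in vector cells, 1 array each, of every probe set of the 7 members lower past 1.5-fold; filled points and thick lines mark the brightest probe set, open points the others, and the dotted line the median signal of 39.3. All lines are lower on the GLUT4 side, and the second CLDN4 line and the lowest ST14 line are nearly flat.

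In the epithelial membrane group, all 7 measured genes lay below 0, against 52.2% of all genes, with a median of -0.40. Of the 7, 3 were lower past 1.5-fold, against 1.54% of all genes. EPCAM read 3020.5 in GLUT4 cells and 5361 in vector cells (-0.83), and MAL2 read 1069 and 1999 (-0.90), each on its single probe set. ST14 read 89.1 and 143 (-0.68) and, on its second probe set, 27.7 and 50.5 (-0.87), while the remaining one, at 20.3 and 22.0, was at -0.11. With the offset of 32 ST14 came to -0.53 and averaged over its probe sets to -0.55, both within 1.5-fold. The Kunitz inhibitors of matriptase were within 1.5-fold, SPINT2 at 2644 and 3501 (-0.40) and SPINT1 at 328 and 405 (-0.30), with the second SPINT1 probe set at -0.27. RAB25, a GTPase of apical recycling, read 760.3 and 826 (-0.12). ESRP1, a splicing factor of epithelial isoforms, read 2698 and 2774 (-0.04), and its second probe set was at 0.13. RAB25 and ESRP1 thus lay inside the technical SD of 0.20.

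Of the connexins, GJB2 was lower past 1.5-fold. It read 156 in GLUT4 cells and 296 in vector cells (-0.92) on 1 probe set. GJB5 read 460.2 and 591 (-0.36). GJA1 at 20.3 and 21.0 and GJB6 at 8.39 and 6.81 lay under the median signal, so the gap junction median of -0.21 rests partly on dim values, and over the connexins above that signal it was -0.64.

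None of the 7 adherens junction members was past 1.5-fold. CDH1 (E-cadherin) came nearest, at 2224 in GLUT4 cells and 3223 in vector cells (-0.54), and its second probe set read 37.3 and 45.2 (-0.28). CDH3 (P-cadherin) read 2362 and 2678 (-0.18). All 5 probe sets of CTNNA1, the alpha-catenin that links cadherins to actin, lay between -0.20 and -0.04. Among the nectins, NECTIN4 read 80.6 and 62.6 (0.37), NECTIN1 165 and 172 (-0.06) and NECTIN2 158 and 179 (-0.18), and NECTIN3 was under the median signal at 6.98 and 6.96. The other probe sets of NECTIN1 lay between -0.26 and 0.31 and those of NECTIN2 between -0.19 and 0.21, so neither gene had a settled direction. The median of the 7 genes was -0.06, and -0.12 over those above the median signal.

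The 11 desmosome genes were all above the median signal and all within 1.5-fold, 6 above 0 and 5 below, with a median of 0.04, and none of their 29 probe sets was past 1.5-fold. DSC3, a desmocollin of the basal layers of squamous epithelium, was nearest to the threshold, with 347 in GLUT4 cells and 240.0 in vector cells (0.53), 234 and 176 (0.41) and 43.7 and 32.8 (0.42), so that its 3 probe sets were higher by similar amounts. The other desmocollin, DSC2, read 636 and 721 (-0.18), with its other probe sets between -0.19 and 0.33. Of the desmogleins, DSG2 read 4460.4 and 4598 (-0.04) and, on its second probe set, 620 and 783 (-0.34), and DSG3 read 556 and 516 (0.11). Desmoplakin, DSP, read 3618 and 3247 (0.16) and plakoglobin, JUP, 429 and 434 (-0.02). The plakophilins, armadillo proteins of the plaque, lay between -0.17 (PKP2) and 0.10 (PKP3) on their brightest probe sets. PERP, a tetraspan protein of desmosomes, read 11287 and 11793 (-0.06), with its other probe sets between -0.41 and 0.45. The difference between junction types was not tested.

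**Figure D4:**
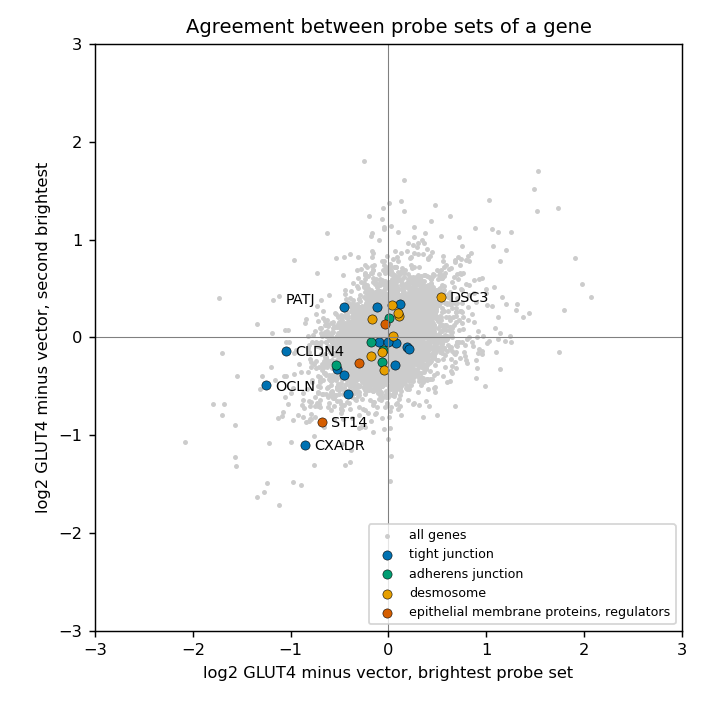
The log2 difference (GLUT4 minus vector) on the brightest probe set of a gene (horizontal axis) and on its second brightest (vertical axis), for the 10523 genes with several probe sets in grey and for 32 members in colour by junction type. OCLN, CXADR and ST14 lie at the lower left, DSC3 at the upper right, PATJ has opposite signs and CLDN4 is near 0 on the vertical axis.

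For 32 members a second probe set exists, and 24 of these pairs had the same sign (75.0%, against 61.3% of all genes with a pair). Where both probe sets were above the median signal, this held for 20 of 23 members (87.0%, against 67.1%). Pearson's r between both differences was 0.63 across the 32 members and 0.37 across the 10523 genes. The points share both arrays, and genes are not independent replicates. The members were chosen with earlier results of these data known, so their higher agreement cannot be read as a test. Taken on the second brightest probe set, 2 of the 32 members were lower past 1.5-fold, CXADR and ST14. The share over the second probe sets of all genes was not counted, and over all probe sets naming 1 gene it was 1.38%. GJB2, EPCAM and MAL2 have 1 probe set each.

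Several members lie next to each other in the order of RefSeq protein-coding genes (GRCh38.p14), and such neighbours did not share their differences throughout. On chromosome 5, OCLN was at -1.25 and the adjacent MARVELD2 at -0.45. On chromosome 7, CLDN4 was at -1.05 and the adjacent CLDN3 at 0.19, and on chromosome 13, GJB2 was at -0.92 and GJB6 at 0.30. The dim second probe sets of CLDN4 and CLDN3 were at -0.14 and -0.09. GJB6 lay under the median signal, so its value gives no direction. CDH1 and CDH3 on chromosome 16 were at -0.54 and -0.18. On chromosome 18, DSC3 and DSC2 were at 0.53 and -0.18, and DSG3 and DSG2 at 0.11 and -0.04.

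Promoters were available for 33 of the 48 members, among them 3 of the 7 lower past 1.5-fold, and these 3 are shown because their genes carry the difference (RefSeq, GRCh38.p14, 250 bases before to 50 after the start, 5′ to 3′). The stretch of OCLN is chr5:69492297-69492596, plus strand, that of CLDN4 chr7:73830746-73831045, plus strand, and that of GJB2 chr13:20192889-20193188, minus strand. Capitals mark the letters CAGGTG (the E-box of SNAI and ZEB repressors), AACCNGT (most of the motif of Grainyhead-like factors) and TGANTCA (AP-1), searched on both strands.
OCLN: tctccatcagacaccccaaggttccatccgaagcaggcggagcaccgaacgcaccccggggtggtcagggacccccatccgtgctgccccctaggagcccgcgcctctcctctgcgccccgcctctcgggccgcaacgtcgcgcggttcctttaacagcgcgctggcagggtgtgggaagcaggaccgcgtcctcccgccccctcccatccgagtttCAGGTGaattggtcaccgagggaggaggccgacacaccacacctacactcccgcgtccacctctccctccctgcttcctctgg
CLDN4: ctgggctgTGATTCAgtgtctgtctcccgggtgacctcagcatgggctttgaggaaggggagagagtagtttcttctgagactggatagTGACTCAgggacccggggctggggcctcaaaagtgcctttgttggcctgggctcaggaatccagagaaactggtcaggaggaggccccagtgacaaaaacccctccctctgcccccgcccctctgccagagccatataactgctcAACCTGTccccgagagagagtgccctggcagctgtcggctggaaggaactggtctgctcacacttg
GJB2: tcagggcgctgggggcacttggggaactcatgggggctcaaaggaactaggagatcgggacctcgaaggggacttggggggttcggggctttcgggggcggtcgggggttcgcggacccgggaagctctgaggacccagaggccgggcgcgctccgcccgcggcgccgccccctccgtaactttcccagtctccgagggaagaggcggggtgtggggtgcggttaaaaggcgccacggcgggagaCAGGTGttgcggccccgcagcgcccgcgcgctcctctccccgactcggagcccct
The E-box letters began 33 bases before the start of OCLN and 5 before that of GJB2. CLDN4 held the Grainyhead-like letters from 16 bases before its start and the AP-1 letters from 242 and 161 bases before it. None of the marked stretches overlapped another. Over the 33 member promoters the E-box letters were in 11 (33.3%, against 20.6% of all 27305 promoters), the Grainyhead-like letters in 5 (15.2%, against 6.87%) and the AP-1 letters in 4 (12.1%, against 7.76%). Members that differed little held them too: the E-box letters stood in the promoters of DSP, TJP1 and CLDN3. A match is a description of these letters and no binding site.

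Further genes of the same structures were read for comparison. Of 69 listed, 58 had a probe set naming only them, 1 was lower past 1.5-fold (1.72%, against 1.54% of all genes) and none was higher, with a median of -0.04. The lower one was PLEKHA7, an adherens junction protein, at 37.8 in GLUT4 cells and 62.4 in vector cells (-0.72), and within 1.5-fold with the offset of 32. PPL (periplakin), of the cornified envelope and desmosome, read 173 and 246 (-0.51). CTNNB1 (beta-catenin) read 5286 and 5268, AFDN (afadin), which binds nectins, 956 and 1085 (-0.18), and CDH2 (N-cadherin) 580.2 and 478 (0.28). The tight junction genes of this list, 30 in all, lay between -0.38 and 0.46, with a median of -0.05 and none past 1.5-fold. Its 12 gap junction genes had a median of -0.04, and none of them was past 1.5-fold. Of these, 19 tight junction and 7 gap junction genes lay above the median signal. With 1.54% of all genes lower by that much, sets of 30 and 12 genes would hold few or none. The absence of such genes here thus sets no contrast with the members.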

How the data were processed

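FaDu cells with GLUT4 and with the control vector gave total RNA for 1 Affymetrix GeneChip of the human U133 Plus design per group. The authors deposited intensities on a linear scale. GeneSpring, with log2 values, is the normalization in their methods, whereas MAS5 appears in the submitters' processing notes. How these steps gave the deposited values is not stated in the sources, so the kind of normalization is unknown. No detection calls were used, so dim probe sets could not be told from absent ones.

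Intensities, with a floor of 1, were turned to log2. The platform annotation names 1 gene for 41097 of the 54675 probe sets and several for 1801, and 11777 are unnamed here. Each gene took its probe set with the highest mean. The members and lists were chosen with earlier results of these data known. Values are given in full for members past 1.5-fold on a probe set above the median signal or on their brightest one, for the brightest member of each group and for those nearest the threshold. Other members named in the text complete their group. Signal served to pick the brightest probe set, to set genes against the median signal and to sum the marker lists per array. Levels of different genes were not otherwise compared. Members were counted past 1.5-fold, beside the same share of all genes. The number of arrays limits the precision. Alternatives were equal medians, quantile normalization, a loess fit (fraction 0.3), an offset of 32, a signal filter, leaving out x_at and s_at probe sets, averaging probe sets and a 2-fold threshold. The second brightest probe set was added after the data were seen. Computation used Python 3.11.15 with pandas 2.3.3 and numpy 2.4.6, loess used statsmodels 0.14.6, ranks in quantile normalization used scipy 1.17.1 and plots used matplotlib 3.10.9.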

Additional observations from a re-analysis of the deposited data

How the results depend on the processing

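The count of 7 members lower past 1.5-fold was between 6 and 8 under the 3 scalings, the offset of 32, the signal filter, leaving out x_at and s_at probe sets and averaging the probe sets of a gene. CLDN7 joined with quantile normalization at -0.60, and ST14 dropped out with the offset and with averaging. Leaving out s_at probe sets removed EPCAM, which has no other. Both deposited arrays already shared the highest value of 25994.7 and had medians of 39.1 and 39.7, so the 3 scalings had little to change. All 7 members lay above the median signal, so the signal filter could not remove any of them. At 2-fold 2 members were lower, OCLN and CLDN4, against 0.314% of all genes. On the second brightest probe set 2 of 32 were lower past 1.5-fold, CXADR and ST14. The matching share over the second probe sets of all genes was not counted, and that over all probe sets naming 1 gene was 1.38%. Averaged over probe sets, CLDN4 came to -0.59 and OCLN to -0.99. Under the signal filter the gap junction median was -0.64, over 2 connexins, that of the tight junction -0.30 and that of the adherens junction -0.12. With the offset of 32, no member probe set was higher past 1.5-fold (0 against 1) and no further junction gene was lower (0 against 1). No value past 1.5-fold changed its sign. PATJ, within 1.5-fold, was at 0.14 when averaged and at 0.27 without x_at and s_at probe sets. No paired analysis was possible because each group had 1 array.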

Other observations

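Transcription factors known to act on epithelial junction genes were read in addition. This list was written after the arrays had been seen. Of 8 factors listed as favouring epithelial genes, none was past 1.5-fold (1.54% of all genes were lower by that much). All 8 lay below 0, as did 52.2% of all genes, but several by very little. GRHL2 read 488 in GLUT4 cells and 571 in vector cells (-0.23), OVOL2 385 and 424 (-0.14), KLF4 3638 and 4067 (-0.16) and ELF3 106 and 122 (-0.21). OVOL1 at -0.01, KLF5 at -0.04, OVOL2 and KLF4 lay inside the technical SD of 0.20, and the second KLF4 probe set was at -0.0008. On their brightest probe sets ELF3 and GRHL2 lay just past that SD. GRHL1 and GRHL3 lay under the median signal. Of 5 repressors, 2 were higher past 1.5-fold, against 1.84% of all genes. SNAI2 (Slug) read 4070 and 2416 (0.75). ZEB2 read 51.7 and 13.8 (1.91) and, on its second probe set, 20.6 and 11.7 (0.82), with its remaining probe sets between -0.18 and 0.21 and its means all under the median signal. TWIST1 read 864 and 583 (0.57), just within 1.5-fold. SNAI1 at 37.0 and 39.4 and ZEB1 at 20.6 and 21.3 lay under the median signal. How these values relate to the junction genes was not tested.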
